A study of Mus musculus with 6 samples.

Results

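Muscle fibres carry their own versions of several energy-metabolism proteins, and the genes of 10 of them were followed in bone: Ckm, Ckmt2, Mb, Pygm, Pfkm, Eno3, Pgam2, Ampd1, Cox6a2 and Cox8b. They were taken by name from the 54532 genes of the expression table, by a rule that sets no threshold on their values but was written with earlier results of these data known. All 10 were found there, and all 10 passed the filter used for testing, a mean of at least 1 FPKM over the 6 libraries, which kept 13619 genes. FPKM is a fragment count divided by exon length and by library size, so levels of different genes can be set roughly side by side. The lengths that fit these values take in all annotated exon bases of a gene, also any that its RNA in bone does not hold. In the knockout 4 of the 10 genes fell (Ampd1, Pgam2, Eno3 and Ckm), beside 3.82% of all genes tested, and the other 6 did not pass the test. Every knockout library lay below every wild-type library for all 10, which held for 13.7% of all genes tested.

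The RNA came from bone of female C57BL/6J mice aged 16 weeks. One group was wild type (WT, 3 libraries) and the other was MIR29cb2-/- (called the knockout, 3 libraries), named for the deleted cluster that encodes miR-29b-2 and miR-29c. The labels name no Cre or other transgene. They leave out the skeletal site, the handling of marrow and attached soft tissue, and the number of animals behind the libraries, so p-values speak of the scatter of these 6 libraries, some of which may be technical.

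Between 16727111 and 20118034 reads were recovered per library, and 13097 to 14009 genes reached 1 FPKM. The libraries wild-type replicate 2 and knockout replicate 1 differed from the rest. They summed to 489576 and 487102 FPKM, and the other 4 libraries to between 355787 and 404994. In both, short genes lay above and long genes below their group mean (Spearman's rho of deviation with exon length across genes -0.42 and -0.45). A330023F24Rik, the host transcript of the deleted cluster, was at 0.197, 0.153 and 0.136 FPKM in wild type and at 2.51, 3.25 and 4.08 in the knockout. Mir29b-2 and Mir29c were listed at 0 in all 6 libraries, a class of RNA too short for this library type, so their loss could not be checked here. Of 10 osteoblast, osteocyte and osteoclast markers all 10 passed the filter, and so did 10 of 10 blood cell markers, so transcripts of both tissues were present.

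As background, muscle contraction uses ATP faster than the resting cell makes it. Creatine kinases refill ATP from phosphocreatine within moments, glycogen phosphorylase and the glycolytic enzymes feed ATP production without oxygen, myoglobin stores and carries oxygen to mitochondria, and AMP deaminase removes the AMP that builds up in hard work. Many of these proteins exist in a muscle form and in a form used by other cells, so each muscle gene can be set against its counterpart. Muscle is not part of bone, but muscles attach to its surface. In bulk tissue fewer cells of a type and less RNA per cell cannot be told apart.

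The deleted microRNAs share their seed, the stretch that pairs with target mRNAs, with their relatives from the sister cluster. The mature sequences are shown so that the site searched in the 10 genes can be read against them. They are taken from RefSeq (GRCm38.p6), with the seed, bases 2 to 8, in capitals.
mmu-miR-29b-3p: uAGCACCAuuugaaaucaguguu
mmu-miR-29c-3p: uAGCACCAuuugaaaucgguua
mmu-miR-29a-3p: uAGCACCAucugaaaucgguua
Mir29b-2 yields the mature form at chr1:195037091-195037113 and Mir29c the one at chr1:195037600-195037621, both on the plus strand. The same miR-29b-3p also comes from Mir29b-1 on chromosome 6, beside Mir29a. The DNA site that pairs with the seed, TGGTGCT, was present in the annotated 3′ UTR of 0 of the 10 genes. It occurred in 13.8% of the 21008 genes with an annotated 3′ UTR and in 16.3% of the 11662 tested genes with one. These 10 UTRs are of very different length, from 33 bases in Pgam2 and 43 in Cox8b to 808 in Ampd1 and 1455 in Ckm. No match says only that these letters are not in those annotated UTRs.

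To ask whether muscle-type energy metabolism differed between the genotypes, each gene was compared on the log2(FPKM + 1) scale with limma, adjusted by Benjamini-Hochberg over all 13619 genes at a threshold of 0.05. Summed over the 10 genes, wild-type levels were 1928, 3139 and 1537 FPKM (replicates 1 to 3), and knockout levels were 682, 708 and 1074 FPKM. As a share of each library's FPKM total this was 0.542%, 0.641% and 0.380% in wild type and 0.140%, 0.178% and 0.274% in the knockout. No knockout library reached any wild-type library in either measure.

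None of the 10 genes rose, with 0 called higher beside 1.34% of all genes tested. Every knockout library above every wild-type library was seen for 0 of the 10 and for 14.7% of all genes tested. Log2 changes of the 10 ran from -2.07 to -0.87 with a median of -1.38, against a median of 0.06 over all genes tested, and 9 of the 10 had an unadjusted p under 0.05. The libraries kept nearly the same rank in each gene. Wild-type replicate 2 was the highest library for all 10, wild-type replicate 3 the lowest of its group for all 10, and knockout replicate 3 the highest of its group for all 10. The genes thus moved together between libraries of the same genotype as well as between genotypes, and they are not 10 independent readings. With wild-type replicate 2 and knockout replicate 1 both left out, the median change was -0.93, only Ampd1 passed (limma), and 9 of 10 still had an unadjusted p under 0.05.

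**Figure D1:**
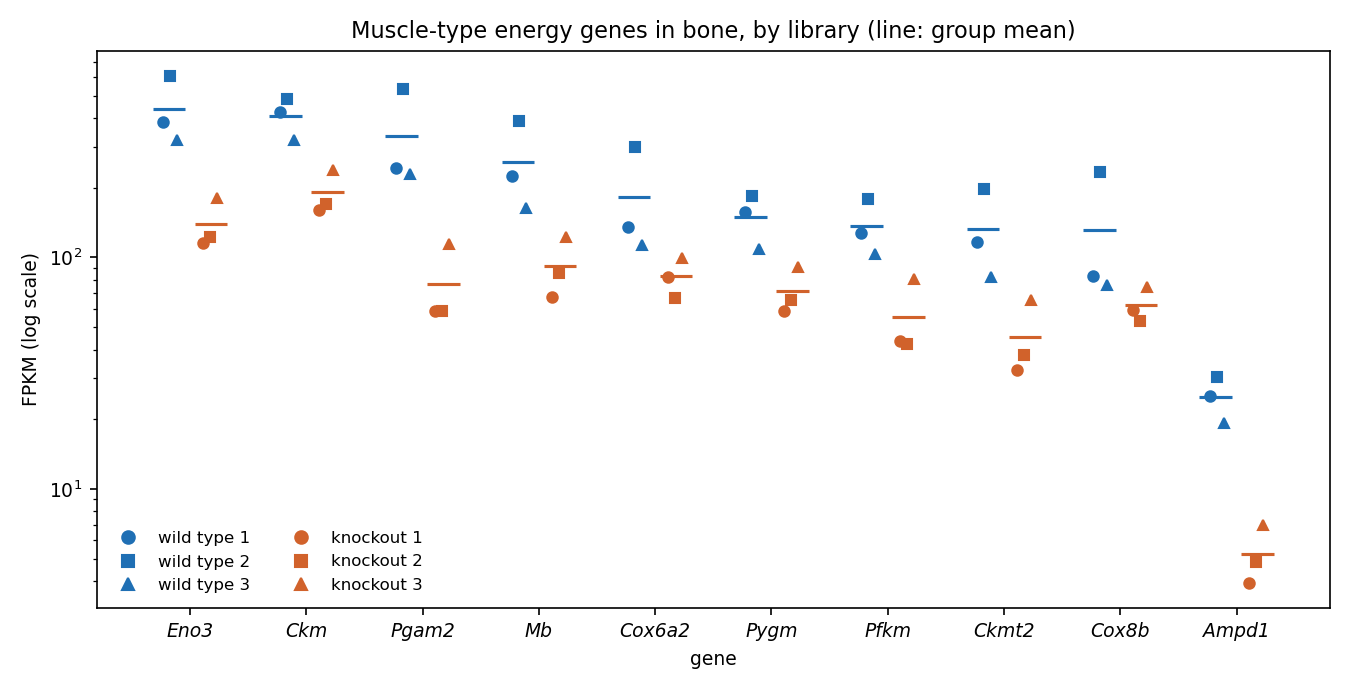
FPKM (log axis) of the 10 muscle-type energy genes in each library, ordered by wild-type mean; blue symbols are wild type, orange symbols knockout, shapes give the replicate number and lines the group means. All knockout points lie below all wild-type points of the same gene, wild-type replicate 2 (blue square) is highest throughout, and Ampd1 sits far below the other 9.

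By level, Eno3 stood highest in wild-type bone (438 ± 151 FPKM, SD, n = 3), followed by Ckm, Pgam2, Mb, Cox6a2, Pygm, Pfkm, Ckmt2 and Cox8b (131 ± 88.9). Each of these neighbours overlapped in its range over the 3 libraries. Within each library Pgam2 was above Mb, Mb above Cox6a2 and Pygm above Pfkm. For the other neighbours, Eno3 and Ckm among them, the order varied between libraries and is loose. Ampd1 was lowest, at 24.9 ± 5.66 FPKM, and its range did not meet that of Cox8b.

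The creatine kinases and myoglobin come first. Ckm encodes the cytosolic creatine kinase of muscle and lies at chr7:19404776-19422841 (mm10, plus strand). Its level was 427, 483 and 321 FPKM in the wild-type libraries and 161, 171 and 239 in the knockout libraries. Knockout replicate 3 stood above the other knockout libraries, and all 3 were under the lowest wild-type value. The means were 410.3 ± 82.4 and 191 ± 42.3 FPKM (SD, n = 3), a 2.15-fold lower level, and Ckm fell by 1.10 on the log2 scale (SE 0.24, limma adjusted p = 0.0462). That call sits near the threshold and was lost when any library was left out, with an adjusted p of up to 0.196 over 17 alternative settings. The window around its annotated start is shown because Ckm has long served as a model gene of muscle transcription. It is the RefSeq promoter, 250 bases before to 50 after the start (GRCm38.p6, chr7:19410844-19411143, plus strand), and capitals mark CAGCTG, a form of the E-box bound by the MyoD family of muscle transcription factors.
Ckm: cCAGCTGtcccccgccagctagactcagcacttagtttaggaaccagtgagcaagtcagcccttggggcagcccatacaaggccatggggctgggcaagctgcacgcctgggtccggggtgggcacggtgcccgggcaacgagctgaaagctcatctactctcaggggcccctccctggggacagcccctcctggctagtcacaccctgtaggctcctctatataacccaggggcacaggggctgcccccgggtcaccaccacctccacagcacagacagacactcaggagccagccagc
The only CAGCTG of this window lies at -249, at its far end.

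Ckmt2 encodes the creatine kinase of muscle mitochondria, which passes new ATP to creatine (chr13:91853387-91876885, minus strand). It was at 117, 198 and 82.4 FPKM in wild type and at 32.7, 38.0 and 65.8 in the knockout. Knockout replicate 3 came close to wild-type replicate 3, and the spread within wild type was wide. Its log2 change was -1.50 (SE 0.37) and did not pass (limma adjusted p = 0.0700). Mb encodes myoglobin, the oxygen store of muscle and not an enzyme (chr15:77015487-77050670, minus strand). It stood at 225, 387 and 163 FPKM in wild type and 67.6, 85.5 and 123 in the knockout. The pattern over libraries was that of Ckmt2, with a log2 change of -1.43 (SE 0.35) that did not pass either (limma adjusted p = 0.0679). An antisense model, Gm49540, shares 27.6% of the exon bases of Mb, but had a mean of 0.0691 FPKM. A930016O22Rik shares 15.5% of those of Ckm on the opposite strand and had a mean of 0.423 FPKM. Higher partners were Itgad, a leukocyte integrin with a mean of 6.28 FPKM, which shares 10.3% of the exon bases of Cox6a2, and Pitrm1, with a mean of 17.3 FPKM, which shares 5.58% of those of Pfkp, itself a low gene, both on the opposite strand. Whether strand was used in counting is not known here, so reads of such overlaps cannot be assigned.

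The route from glycogen to pyruvate was covered by 4 genes, of which Eno3 and Pgam2 fell. Pygm encodes muscle glycogen phosphorylase, which releases glucose units from glycogen (chr19:6384399-6398459, plus strand). Its levels were 158, 184 and 109 FPKM in wild type and 58.7, 65.5 and 90.7 in the knockout. Across the groups, wild-type replicate 3 and knockout replicate 3 were the nearest pair. The log2 change of -1.05 (SE 0.25) did not pass (limma adjusted p = 0.0609). Pfkm encodes the muscle subunit of phosphofructokinase, the main control point of glycolysis (chr15:98092589-98132451, plus strand). It was at 128, 179 and 104 FPKM in wild type and at 43.6, 42.1 and 80.8 in the knockout. Knockout replicate 3 stood well above the other knockout libraries, and the log2 change of -1.32 (SE 0.31) did not pass (limma adjusted p = 0.0581). Gm26513 shares 10.2% of the exon bases of Pfkm on the same strand, with a mean of 0.275 FPKM.

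Pgam2 encodes the muscle phosphoglycerate mutase, a late step of glycolysis (chr11:5801640-5803733, minus strand). It was at 244, 536 and 229 FPKM in wild type and at 58.5, 58.7 and 114 in the knockout. Wild-type replicate 2 held more than the other wild-type libraries together, and knockout replicate 3 lay above the other knockout libraries. The means were 336 ± 173 and 76.9 ± 31.7 FPKM (SD, n = 3), 4.37-fold apart, and Pgam2 fell by 2.07 on the log2 scale (SE 0.40, limma adjusted p = 0.0359). Eno3 encodes beta-enolase, the muscle form of the next enzyme of the pathway (chr11:70657202-70662513, plus strand). Its wild-type levels were 385, 608 and 321 FPKM, and its knockout levels 115, 122 and 180.1. The lowest wild-type library was well above the highest knockout library. Means of 438 ± 151 and 139 ± 35.9 FPKM (SD, n = 3) gave a 3.15-fold lower level, and Eno3 fell by 1.63 on the log2 scale (SE 0.29, limma adjusted p = 0.0316). Without wild-type replicate 2 and knockout replicate 1 the changes were -1.52 for Pgam2 and -1.24 for Eno3, and neither passed (limma adjusted p = 0.0837 and 0.0755). With 1 library left out, the call of Pgam2 held only without knockout replicate 3, and that of Eno3 only without wild-type replicate 3 or knockout replicate 3.

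Promoter windows of both genes that fell, and of Pygm beside them, are given to show which letters these neighbours in the pathway share. Capitals mark CAGCTG and, in Pgam2, the other E-box form CACCTG, read there on the opposite strand as CAGGTG.
Pgam2 (chr11:5803747-5804046, minus strand): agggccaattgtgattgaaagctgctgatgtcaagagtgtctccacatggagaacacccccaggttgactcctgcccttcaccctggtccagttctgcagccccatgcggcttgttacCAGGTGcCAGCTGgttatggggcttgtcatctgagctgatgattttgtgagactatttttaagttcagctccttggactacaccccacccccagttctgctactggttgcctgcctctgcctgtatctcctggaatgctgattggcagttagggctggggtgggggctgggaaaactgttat
Eno3 (chr11:70656926-70657225, plus strand): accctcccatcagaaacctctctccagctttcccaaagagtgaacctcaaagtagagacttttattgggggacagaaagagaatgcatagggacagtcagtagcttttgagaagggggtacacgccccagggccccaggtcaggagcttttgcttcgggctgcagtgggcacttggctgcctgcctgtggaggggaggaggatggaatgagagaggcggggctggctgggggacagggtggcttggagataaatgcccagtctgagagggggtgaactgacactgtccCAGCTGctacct
Pygm (chr19:6384158-6384457, plus strand): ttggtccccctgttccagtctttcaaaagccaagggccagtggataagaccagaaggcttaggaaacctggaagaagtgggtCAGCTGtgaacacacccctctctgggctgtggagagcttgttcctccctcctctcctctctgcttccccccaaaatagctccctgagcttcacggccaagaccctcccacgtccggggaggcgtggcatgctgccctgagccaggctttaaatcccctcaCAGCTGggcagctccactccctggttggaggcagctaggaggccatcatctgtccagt
In Pgam2 the E-boxes lie at -132 and -125, separated by a single base. Eno3 holds CAGCTG at 39, after the start, and Pygm holds it at -168 and -8.

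Ampd1 was called in more of the alternative settings than any other gene of the set. It encodes the muscle AMP deaminase, which turns AMP into IMP during hard contraction (chr3:103074014-103099720, plus strand). Its levels were 25.1, 30.5 and 19.2 FPKM in wild type and 3.94, 4.82 and 6.99 in the knockout. Knockout libraries held 15.8%, 19.4% and 28.1% of the wild-type mean, and the lowest wild-type library held 76.9%. The means of 24.9 ± 5.66 and 5.25 ± 1.57 FPKM (SD, n = 3) were 4.74-fold apart, and Ampd1 fell by 2.06 on the log2 scale (SE 0.23, limma adjusted p = 0.0103). It passed in 16 of 17 alternative settings, the exception being the fit without wild-type replicate 1 (adjusted p = 0.0516). At its level the count is still ample, with 232 reads in the lowest library.

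Cox6a2 and Cox8b encode muscle-type subunits of cytochrome c oxidase, the last complex of the respiratory chain, and are small proteins around its core. Cox6a2 (chr7:128205435-128206387, minus strand) was at 135, 300.4 and 113 FPKM in wild type and at 82.4, 67.1 and 99.9 in the knockout. Apart from wild-type replicate 2, the groups lay close to each other. Its log2 change was -1.01 (SE 0.37), did not pass (limma adjusted p = 0.178), and was -0.58 without wild-type replicate 2. Cox8b (chr7:140898945-140900446, minus strand) was at 82.8, 233 and 75.9 FPKM in wild type and at 59.1, 53.4 and 74.2 in the knockout. Wild-type replicate 3 and knockout replicate 3 all but touched, and most of the difference of means came from wild-type replicate 2. The log2 change was -0.87 (SE 0.42), did not pass (limma adjusted p = 0.304), and was -0.36 without wild-type replicate 2. These are the shortest transcripts of the set, with 360 exon bases in Cox8b and 680 in Cox6a2, and wild-type replicate 2 was the wild-type library in which short genes were high. With each library's trend with exon length removed, the changes were -1.03 for Cox6a2 and -0.95 for Cox8b (limma adjusted p = 0.108 and 0.204).
Cox8b (promoter at chr7:140900397-140900696, minus strand): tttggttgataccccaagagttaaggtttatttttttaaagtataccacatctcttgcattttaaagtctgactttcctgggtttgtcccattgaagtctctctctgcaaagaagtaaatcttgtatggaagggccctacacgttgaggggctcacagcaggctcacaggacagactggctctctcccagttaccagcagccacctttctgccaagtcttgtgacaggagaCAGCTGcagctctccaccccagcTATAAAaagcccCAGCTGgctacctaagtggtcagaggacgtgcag
This window is shown because it alone among the 13 windows of the set held TATAAA on the forward strand, at 5, with CAGCTG on either side, at -19 and 17. All are in capitals.

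Over the set, RefSeq gave promoter windows of 300 bases for 8 of the 10 genes (all but Ampd1 and Cox6a2), 13 windows in all. CAGCTG, read on both strands, occurred in 8 of the 13 windows and in 7 genes, Ckm, Ckmt2, Mb, Pygm, Eno3, Pgam2 and Cox8b. It was present in 16.3% of all 32851 windows. A pair of Mb windows overlap and share a site, so the 8 are not separate readings. CACCTG occurred in 4 of the 13 windows (Pgam2, Ckmt2 and Pfkm) and in 20.2% of all windows. CTAAAAATA, a form of the site of the MEF2 factors, was in 0 of 13 windows and 0.517% of all, and CATTCCT, the core of the MCAT element, in 0 of 13 and 5.36%. Other forms of the MEF2 site were not searched, so their absence is not shown. TATAAA, forward strand only, was in 1 of 13 and 8.32%. These are matches of letters in short windows, not sites shown to be bound.

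To ask whether the whole enzyme step or only its muscle form differed, the non-muscle counterparts were read from the same fit. Of 14 counterparts 12 passed the filter, and of these 1 fell (Cygb), 1 rose (Pgam1) and 10 did not pass, with a median log2 change of 0.24. Over all genes tested 3.82% fell and 1.34% rose. Cygb, set beside Mb, is not an isoform of an enzyme. Pgam1, the general phosphoglycerate mutase, was at 66.3, 51.3 and 72.6 FPKM in wild type and at 132, 107 and 127 in the knockout. It rose by 0.94 on the log2 scale (SE 0.17, limma adjusted p = 0.0336), where Pgam2 fell. That rise did not pass when any 1 library was left out, nor without wild-type replicate 2 and knockout replicate 1 together (log2 change 0.74, limma adjusted p = 0.072). Eno1, the general enolase, was at 57.8, 76.5 and 64.1 FPKM in wild type and 125, 92.9 and 102 in the knockout, without overlap, and its log2 change of 0.68 did not pass (limma adjusted p = 0.0729). The knockout libraries were also above all wild-type libraries for Pygl (log2 change 0.25), Pfkl (0.24), Pfkp (0.51) and Ampd2 (0.40), none of which passed. Counted together, 6 of the 12 counterparts did not overlap with the knockout higher, beside 14.7% of all genes tested, and 2 with the knockout lower, beside 13.7%.

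The remaining counterparts were level or low. Pygb (10.6 ± 0.792 and 10.7 ± 1.01 FPKM, SD, n = 3), Cox6a1 (418 ± 112 and 419 ± 119) and Cox8a (340.0 ± 68.0 and 371 ± 78.3) overlapped between the groups, as did Ampd3 (14.9 ± 4.27 and 18.5 ± 3.60). Neither Ckmt1, with at most 4 reads in a library, nor Eno2, at 0.241 ± 0.0955 FPKM in wild type, passed the filter. A pair went the way of the muscle forms. Ckb, the creatine kinase of brain and many other tissues, was at 48.7, 90.4 and 39.5 FPKM in wild type and at 26.5, 21.7 and 12.2 in the knockout (log2 change -1.49, limma adjusted p = 0.0693). Cygb, cytoglobin, a relative of myoglobin found in fibroblast-like cells, was at 7.37, 9.65 and 7.11 FPKM in wild type and 3.11, 4.06 and 3.12 in the knockout, and fell by 1.03 on the log2 scale (SE 0.15, limma adjusted p = 0.0201). Its call was lost without wild-type replicate 1 or any 1 knockout library, and without wild-type replicate 2 and knockout replicate 1 together (limma adjusted p = 0.0532 to 0.0704).

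**Figure D2:**
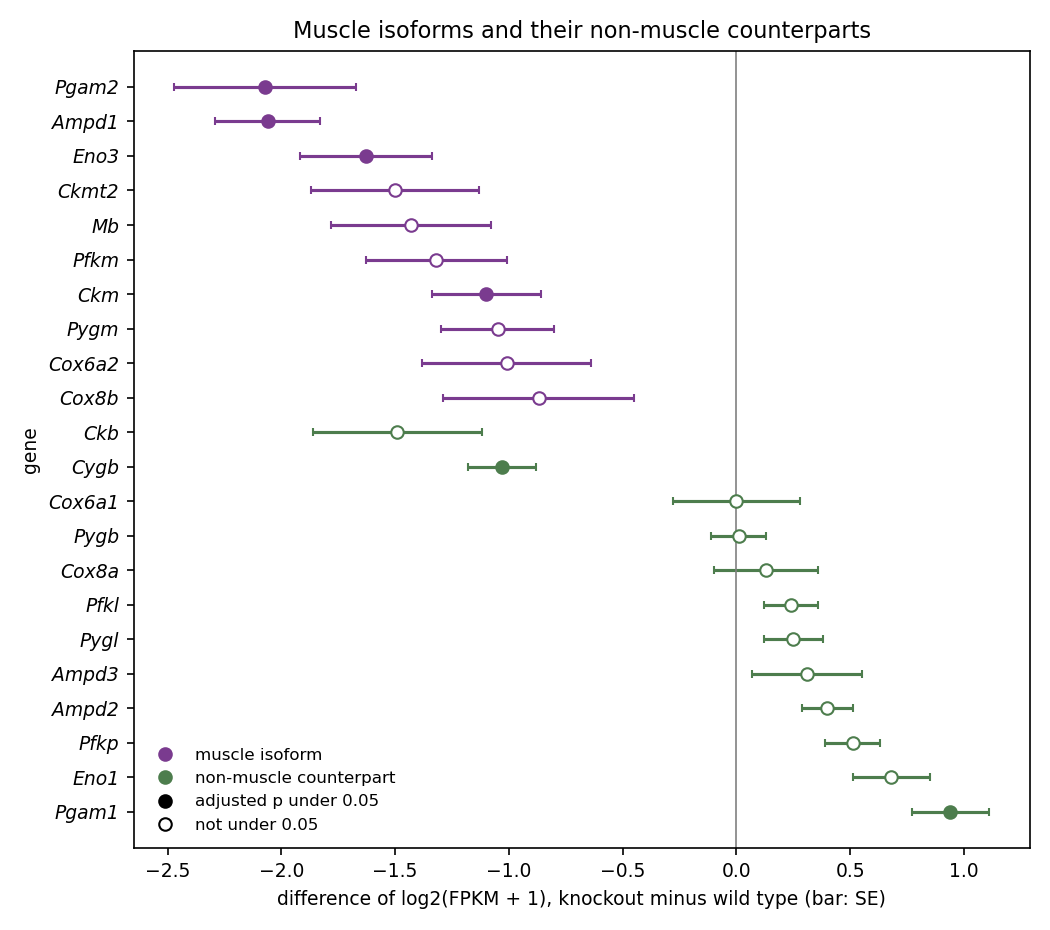
Difference of log2(FPKM + 1), knockout minus wild type, with its SE for the 10 muscle isoforms (purple) and the 12 counterparts that passed the filter (green); filled points passed the threshold. All muscle isoforms lie left of 0, from -2.07 for Pgam2 to -0.87 for Cox8b, while among counterparts Ckb and Cygb lie clearly to the left and Pgam1 farthest to the right, at 0.94.

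The balance within each enzyme was then read as the muscle form's percent of the summed FPKM of its isoforms. This cancels a factor common to all genes of a library. It does not cancel a library's trend with exon length, since isoforms differ in length (840 exon bases in Pgam2, 1982 in Pgam1). The size of a share also depends on these lengths, which take in all annotated exon bases of a gene. In bulk tissue it also cannot show whether any cell changed its form. For 9 enzymes with a counterpart (Mb was left out, cytoglobin not being an isoform), the share was lower without overlap in 5 and overlapped in 4. With 3 libraries against 3, the two-sided exact permutation test cannot give a p under 0.1, which is what each of the 5 gave. Pgam2 made up 78.7%, 91.3% and 75.9% of phosphoglycerate mutase in wild type and 30.7%, 35.3% and 47.2% in the knockout. By FPKM Pgam2 was thus the larger part in all 3 wild-type libraries and Pgam1 in all 3 knockout libraries. Eno3 made up 86.9%, 88.8% and 83.3% of enolase in wild type and 47.7%, 56.7% and 63.8% in the knockout. By this measure it was still the larger part in 2 of the 3 knockout libraries. Recovered reads are not divided by exon length. In them Eno1 exceeded Eno3 in all 3 knockout libraries (11181, 8706 and 9518 against 3302, 3698 and 5420). Ampd1 made up 47.7%, 60.0% and 40.8% of AMP deaminase in wild type and 11.8%, 13.0% and 16.5% in the knockout, where Ampd2 and Ampd3 held the rest.

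In the 2 other shares without overlap, the muscle form stayed ahead in FPKM. Pygm went from 74.9 ± 6.70% to 55.9 ± 4.25% of glycogen phosphorylase (SD, n = 3), and Pfkm from 92.2 ± 2.06% to 78.0 ± 5.99% of phosphofructokinase. For Pygm this rests on the division by exon length. In recovered reads Pygl exceeded Pygm in every knockout library (4941, 5110 and 5822 against 3129, 3669 and 5053). Creatine kinase differed from the shares above. Ckm made up 87.7 ± 3.01% of the cytosolic form in wild type and 89.9 ± 4.74% in the knockout (SD, n = 3, exact permutation p = 0.6), since Ckb was lower as well, and Ckmt2 made up at least 99.93% of the mitochondrial form in every library. For the oxidase subunits the muscle form was the minor one in all 6 libraries. Cox6a2 held 29.3 ± 6.97% and 17.1 ± 4.73%, and Cox8b 26.0 ± 9.30% and 14.7 ± 3.61% (SD, n = 3, exact permutation p = 0.2 for each), with overlap. The difference for Cox8b, -11.3 points, was -6.15 without wild-type replicate 2, and that for Cox6a2, -12.2 points, was -6.83 without wild-type replicate 2 and knockout replicate 1.

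**Figure D3:**
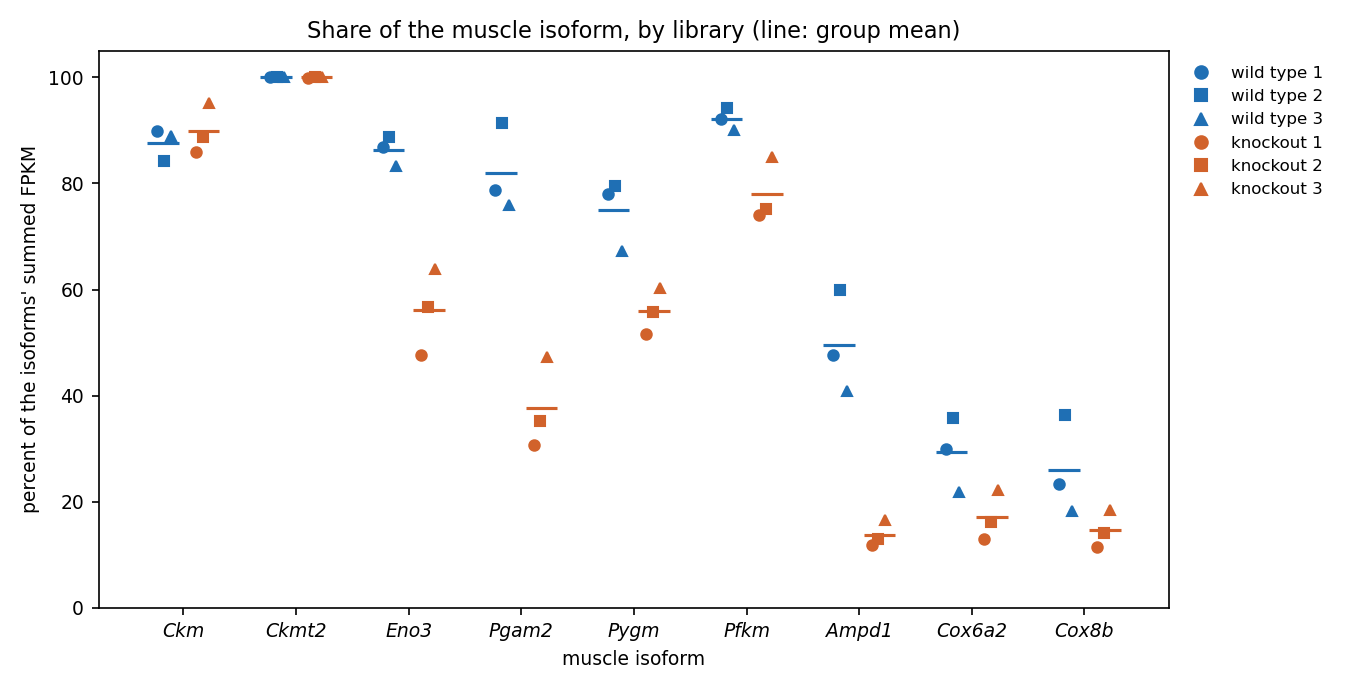
Share of the muscle isoform in the summed FPKM of its enzyme, in percent, by library (blue wild type, orange knockout, shapes give the replicate, lines the group means). Knockout points lie under all wild-type points for Eno3, Pgam2, Pygm, Pfkm and Ampd1, and the groups overlap for Ckm, Ckmt2, Cox6a2 and Cox8b.

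Contractile genes of muscle were read beside the energy genes. In a list of 25 sarcomere genes 22 passed the filter, 4 of these fell (3.82% of all genes tested did), 0 rose, and the median log2 change was -0.81. The groups did not overlap, with the knockout lower, for 11 of the 22, beside 13.7% of all genes tested, while Tnnt1 (log2 change 0.39) and Tnnc1 (0.35) had higher means in the knockout. Summed levels of the list were 4451 to 8139 FPKM in wild type and 2348 to 3389.7 in the knockout. Casq1, the calcium store protein of fast fibres (log2 change -1.94, limma adjusted p = 0.0198), Myl1, a fast myosin light chain (log2 change -1.19, adjusted p = 0.0326), Myh2, a fast myosin heavy chain (log2 change -1.53, adjusted p = 0.0368), and Mylpf, a regulatory light chain (log2 change -1.19, adjusted p = 0.0461), were those that fell. Acta1, skeletal actin, was at 1586, 2437 and 1314 FPKM in wild type and at 595, 703 and 965 in the knockout. Its log2 change of -1.22 did not pass (limma adjusted p = 0.0813). With wild-type replicate 2 and knockout replicate 1 left out, 0 sarcomere genes passed in limma, and 7 had an unadjusted p under 0.05. With 1 library left out, 0 to 2 passed.

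To set the energy genes against contractile RNA of the same library, log2(FPKM + 1) of Acta1 was subtracted from that of each gene. Relative to Acta1, 3 genes were lower in the knockout without overlap. The difference of log2 ratios was -0.86 for Pgam2, -0.84 for Ampd1 and -0.41 for Eno3 (exact permutation p = 0.1 for each, n = 3, the smallest possible). For Ampd1 the log2 ratio was -5.93, -6.27 and -6.03 in wild type and -6.91, -6.92 and -6.92 in the knockout. The 3 knockout libraries were thus alike in this ratio although Acta1 itself varied between them. In those libraries Ampd1 was at 3.94, 4.82 and 6.99 FPKM, low enough for the added 1 to shift the ratio. The near identity thus belongs to this scale. The other 7 overlapped. They ran from -0.28 for Ckmt2, -0.22 for Mb and -0.10 for Pfkm to 0.11 for Ckm, 0.16 for Pygm, 0.21 for Cox6a2 and 0.34 for Cox8b.

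The reference mattered. Against the mean log2 level of the 22 sarcomere genes that passed the filter, 8 of the 10 were lower without overlap, from -1.26 for Pgam2 and -1.25 for Ampd1 to -0.24 for Pygm, and only Cox6a2 (-0.20) and Cox8b (-0.06) overlapped. That mean weights each of the 22 genes equally, slow-fibre genes included. Pgam2, Ampd1 and Eno3 were lower against both references, which were chosen after the data had been seen.

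**Figure D4:**
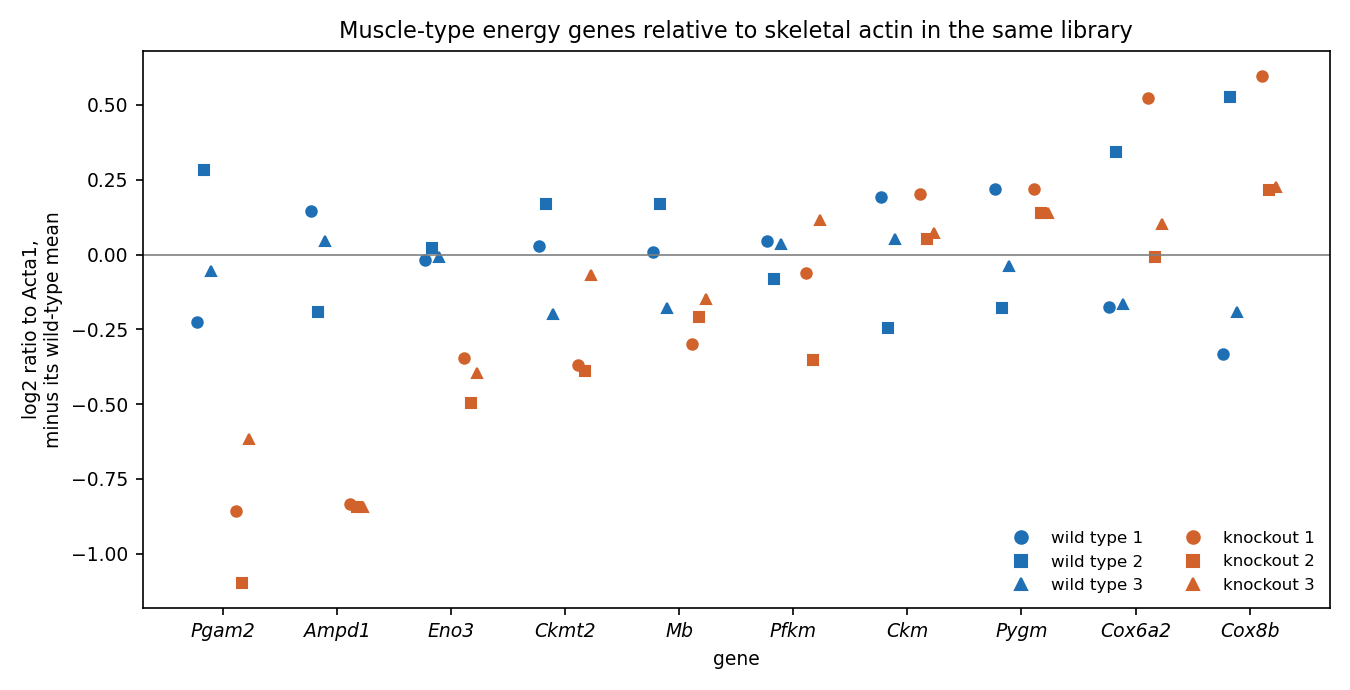
Log2 ratio of each gene to Acta1 in the same library, minus its wild-type mean (blue wild type, orange knockout, shapes give the replicate). The knockout points of Pgam2, Ampd1 and Eno3 lie below all their wild-type points, while for the other 7 genes the groups overlap, and the 3 Ampd1 knockout points lie on top of each other.

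Fibre type was read from a pair of lists. Among 11 fast-fibre markers, most of them also in the sarcomere list, 10 passed the filter, 2 fell (Myh2 and Mylpf), and the median log2 change was -1.02. With 1 library left out, 0 or 1 passed. Pvalb, the calcium buffer of fast fibres, was at 1263 ± 564 and 468 ± 78.5 FPKM, SD over 3 libraries (limma log2 change -1.36, adjusted p = 0.0666). Slow-fibre markers were low in both groups. Of 8, 6 passed the filter, 0 passed the limma threshold (1 lower and 1 higher at an unadjusted p under 0.05, the same by voom), the median was 0.07, and sums were 38.1 to 61.0 FPKM in wild type and 49.8 to 57.5 in the knockout. Casq2 had a log2 change of -1.14 (adjusted p = 0.0661), Myl3 of -0.83 (adjusted p = 0.393) and Atp2a2, the pump of slow fibres and many other cells, of 0.46 (adjusted p = 0.197). A test of the difference between the lists was not made.

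Other genes of muscle energy use mostly went the same way, though few passed the test. In a list of 15, of which 14 passed the filter, 3 fell (3.82% of all genes tested did), 0 rose, and the median log2 change was -0.86. The change was negative for 13 of the 14. The groups did not overlap, with the knockout lower, for 12 of the 14, beside 13.7% of all genes tested. Gpd1, the cytosolic glycerol-phosphate dehydrogenase, abundant in fat as well as in fast muscle, fell from 34.3 ± 7.11 to 7.51 ± 0.689 FPKM, SD over 3 libraries (limma log2 change -2.04, adjusted p = 0.00574). Ak1, the adenylate kinase of muscle, which makes the AMP that Ampd1 removes, fell from 76.0 ± 24.4 to 18.9 ± 8.49 FPKM (log2 change -1.98, adjusted p = 0.0266). Phkg1, the muscle catalytic subunit of phosphorylase kinase, which switches on Pygm, fell from 8.53 ± 1.77 to 1.72 ± 1.04 FPKM (log2 change -1.86, adjusted p = 0.0191). Only Gpd1 passed without wild-type replicate 2 and knockout replicate 1 together, and without each of wild-type replicates 1 and 2 and knockout replicates 1 and 2 in turn.

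The wider lists of glycogen and glycolysis genes were mixed. Both hold genes used by muscle and by other tissues, and Ldhb and Hk2 also stand in the list of 15 above. Of 12 genes of glycogen synthesis and breakdown 2 fell, Pgm1, phosphoglucomutase (50.0 ± 13.9 to 19.3 ± 3.42 FPKM, SD over 3 libraries; limma log2 change -1.31, adjusted p = 0.0288), and Stbd1, a glycogen-binding protein (log2 change -0.95, adjusted p = 0.0375). The list's median was 0.01, and Gyg, the glycogen primer glycogenin, had a log2 change of 0.55 (adjusted p = 0.059) with the knockout higher in all libraries. With 1 library left out, Pgm1 passed only when that was replicate 3 of either group, and Stbd1 only when it was wild-type replicate 3. With wild-type replicate 2 and knockout replicate 1 both out, neither passed. Of 10 glycolytic genes shared between tissues 0 passed in limma, and 0 by voom on recovered reads. At an unadjusted p under 0.05, 1 was lower and 2 were higher in limma. Ldhb, the lactate dehydrogenase of oxidative tissues, had a log2 change of -0.79, and Gpi1 and Pgk1 had changes of 0.50 and 0.49.

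Regulators of muscle genes were often below the filter. Of 13, 7 passed the filter, 1 fell, and the median was -0.60. Mef2c, a factor of muscle and of bone cells, fell by 0.79 on the log2 scale (9.77 ± 1.32 to 5.27 ± 1.16 FPKM, SD, n = 3; limma adjusted p = 0.0474). That call was lost when any 1 library was left out and with a pseudocount of 0.1. Mef2a, a related factor, had a change of -0.36 (adjusted p = 0.171).

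Markers of other cells that could hold some of these transcripts moved as well. Of 8 cardiac markers 6 were under 1 FPKM in every library and Myl7 was at 0 in all. The list summed to 16.9 to 20.7 FPKM in wild type and 4.33 to 6.19 in the knockout, nearly all from Actc1, cardiac actin, which fell (log2 change -2.11, limma adjusted p = 0.016), and Myl4 (log2 change -0.96, adjusted p = 0.0557). Of 8 brown fat markers, a tissue that also uses Cox8b, 5 were under 1 FPKM in every library, and Ucp1 was at most 0.0702. Their sums of 33.2 to 103 FPKM in wild type and 23.8 to 35.5 in the knockout came mostly from Cox7a1, also a muscle gene (log2 change -0.96, adjusted p = 0.26), while Dio2 rose (log2 change 0.66, adjusted p = 0.0358). Smooth muscle markers summed to 88.0 to 185 FPKM in wild type and 60.9 to 85.0 in the knockout, most of it Des, desmin, which skeletal muscle also makes (log2 change -0.62, limma adjusted p = 0.318, groups overlapping). In that list 2 of 4 members past the filter fell, Acta2 (log2 change -1.86, adjusted p = 0.0236) and Myh11 (log2 change -0.93, adjusted p = 0.0408), beside Smtn (log2 change -0.54, adjusted p = 0.0845). With 1 library left out, 0 or 1 of the smooth muscle markers passed. Leaving out wild-type replicate 1 ended the call of Actc1, as did leaving out knockout replicate 2, and the call of Dio2 ended when any 1 library was left out.

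Fat and bone cell markers were examined in the same way. Of 8 white adipocyte markers 7 passed the filter and 6 fell, with sums of 251 to 322 FPKM in wild type and 86.5 to 142 in the knockout. They included Plin1 (log2 change -2.75, limma adjusted p = 0.00349), Cidec (log2 change -2.89, adjusted p = 0.010) and Retn (log2 change -2.69, adjusted p = 0.0108). Of 10 bone cell markers 2 fell, Phex (log2 change -1.09, adjusted p = 0.0211) and Dmp1 (log2 change -1.03, adjusted p = 0.0415), with sums of 2030.3 to 3905 FPKM in wild type and 775 to 1623 in the knockout, and Acp5 had a change of -1.50 (adjusted p = 0.0587). The adipocyte count was 2 to 5 with 1 library left out, lowest without wild-type replicate 1, and the bone cell count 0 or 1. The knockout was lower without overlap for 7 of the 7 adipocyte markers past the filter, beside 13.7% of all genes tested. The same held for 9 of the 10 bone cell markers. Median log2 changes were -1.63 for the adipocyte list and -1.12 for the bone cell list. Sums of the 10 blood cell markers overlapped, at 28676 to 59753 FPKM and 30793 to 51685, most of it the globins Hba-a1 and Hbb-bs. Single markers differed, with Ptprc, Elane and Mpo higher and Vpreb1 lower without overlap. Of the 10, Vpreb1 fell (log2 change -2.32, adjusted p = 0.022), Mpo rose (log2 change 1.05, adjusted p = 0.029), and Elane had a change of 1.18 (adjusted p = 0.0553). Mpo did not pass when any 1 library was left out, and Vpreb1 passed only when that was wild-type replicate 3, knockout replicate 2 or knockout replicate 3. The part that the amount of each tissue in a sample had in the levels of the energy genes was not tested.

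To find which genes shared the profile of Ckm, log2(FPKM + 1) values over the 6 libraries were centred on each gene's own mean. They were compared by their root-mean-square difference. The comparison is a description over 6 libraries, in which the values of all genes share each library's depth and genotype. Among the other 9 energy genes Pygm was nearest (0.0582), then Pfkm (0.193), Mb (0.280), Eno3 (0.298), Ckmt2 (0.312), Cox6a2 (0.325), Cox8b (0.420), Ampd1 (0.479) and Pgam2 (0.577). Outside the set and predicted genes, the nearest were Fzd9 (0.0719), Klhl40 (0.0729), Hrasls (0.0764), Map3k7cl (0.0788), Tmem182 (0.0788), Meox2 (0.0804), AI464131 (0.0809) and Tbx15 (0.0847). Pygm was thus closer to Ckm than any of these 8. Klhl40 is known for stabilising thin filaments of muscle, and Tbx15 and Meox2 are transcription factors of developing limb and trunk tissue. Most of the 8 were scarce, from 1.89 ± 0.415 FPKM for Map3k7cl to 15.8 ± 3.82 for Tmem182 in wild type (SD, n = 3). At low levels the added 1 shrinks a change, so a like profile on this scale is not a like fold change. Between the group means Map3k7cl went from 1.89 to 0.304 FPKM, Fzd9 from 2.76 to 0.890 and Tmem182 from 15.8 to 7.10. Ckm went from 410.3 to 191.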

How the data were processed

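Bone RNA from 3 wild-type and 3 knockout libraries was measured by RNA-seq. The authors deposited FPKM values for 54532 genes. Bowtie 0.12.2 and mm10 are named in the submitters' processing notes, while counting tool, annotation, strand and scaling were not given in the sources used here. GENCODE M21 (coordinates, exon lengths, 3′ UTRs) held 54495 of the identifiers and lacked 37. FPKM times exon length gave whole reads, within 0.01, for 96.9% of the 29600 genes above 0. Depth statements rest on these reads and cover counting error only; Pgam1 and Cox8a gave none.

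Values were tested as log2(FPKM + 1), which understates changes of low genes, with limma 3.58.1 (R 4.3.3, variance trend) over 13619 genes with a mean of at least 1 FPKM, adjusted by Benjamini-Hochberg at 0.05. The step was tested on simulated data. Named genes are the 10 members, the 14 counterparts, up to 3 genes per list by smallest p, the 8 nearest to Ckm, and, outside that rule, after their values were seen, Acta1, Mylpf, Tnnt1 and Tnnc1 (sarcomere), Myl7, Ucp1, Des, Ptprc, the globins, Hk2, genes overlapping members, and the deleted locus. One regulator picked by that rule is not reported here. The members and lists were chosen with earlier results of these data known. Alternatives covered the pseudocount, filter, scaling, variance model, weights, replicate block, voom, a length trend (local regression) and left-out libraries. Libraries of the same group differed by more than counting error (chi-square of reads over its degrees of freedom 17.0 to 102 within groups). Separately prepared libraries of 1 RNA could differ in this way too, so whether any were technical repeats was not tested.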

Additional observations from a re-analysis of the deposited data

How the results depend on the processing

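All 10 genes kept a negative log2 change in 17 of 17 refits. Most of these refits could not turn the sign, since every knockout library lay below every wild-type library for all 10. The number that passed did not hold. From 4 it went to 1 without a filter, 9 with array weights, 8 with voom on recovered reads, and 1 without wild-type replicate 2 and knockout replicate 1; leaving out 1 library gave 0 (without wild-type replicate 1, with 9 at an unadjusted p under 0.05) to 4. The pseudocount of 0.1, the 5 FPKM minimum, the median-of-ratios and quantile scalings and the fit with no trend each gave 4 (with quantile scaling, Pfkm in place of Ckm), and removal of the length trend gave 6. Ampd1 passed in 16 of the 17, Eno3 in 10, Pgam2 in 9, Ckm in 7 and Cox8b in 0. The cause was not tested.

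Over all genes, 520 fell and 183 rose. The fit without a filter gave 100 and 43, array weights 1803 and 1551, removal of the length trend 837 and 379, both libraries left out 153 and 86, a minimum of 5 FPKM 232 lower, and 1 library left out 48 to 348 and 14 to 79. The replicate numbers share only a number: correlations of deviations between same-numbered libraries were -0.493, -0.27 and 0.158. With the replicate block, 1 of the 10 genes passed (Ampd1), with 108 genes lower and 19 higher. Differences of mean shares are the same with and without this block by construction, so they give no check.

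Shares as a percent of recovered reads differed by -37.7 points for Eno3 (main -30.3) and -24.6 for Pfkm (main -14.1). Signs turned for genes near 0 that were not called. Pygb was at -0.02 with quantile scaling, -0.15 with array weights, -0.02 with the length trend removed, -0.09 without both libraries, and at -0.04 to 0.09 when 1 library was left out. Cox6a1 was at -0.03, -0.13, -0.02 and -0.02 in the same 4 settings, and at -0.22 to 0.20 with 1 left out. Cox8a was at -0.04 to 0.27 with 1 left out. Relative to Acta1, chosen after seeing the data, Ckm was at 0.11, Pygm at 0.16, Cox6a2 at 0.21 and Cox8b at 0.34. Reads per gene and library ran from 232 to 27446; effects of depth were not tested.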
